A study of Sus scrofa with 48 samples.

Results

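The circadian clock genes were followed in the dorsal subcutaneous adipose tissue (SCAT) of 48 growing pigs. The members were ARNTL (also called BMAL1), CLOCK, PER1, PER2, PER3, CRY1, CRY2, NR1D1, NR1D2 and DBP, and they were sought by gene symbol among the 60305 distinct probes of a 1-colour Agilent array. A probe was kept when some group had 9 or more of its 12 arrays on which the scanner software scored it as well above background. By this rule 12 of 13 clock probes were kept, for 8 of the 10 genes, out of 44356 kept probes, or 11273 named genes, in all. CLOCK and DBP had no probe under their symbols and are not analysed here, and a second NR1D1 probe, well above background on 10 of 48 arrays, was left out of all tests. Levels are log2 signals minus the median of their array, so 0 is the signal of the middle kept probe, and levels of different probes cannot be set against each other.

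The pigs were Large White barrows of 132 days, 12 per group and 1 array per pig. They came from a pair of lines selected in opposite directions on residual feed intake (RFI), which is the feed eaten beyond what growth and maintenance predict. Low RFI pigs (RFIneg) are therefore the more efficient line and high RFI pigs (RFIpl) the less efficient. Within each line the pigs ate freely of either the HF diet, rich in fat and fiber, in which rapeseed and soybean oils and wheat straw took the place of part of the cereal starch, or the starch-rich LF diet, low in fat. Each diet was thus eaten by pigs of both lines, which makes 4 groups. The hour at which each pig was sampled is not given in the sources used here. The arrays lay on 6 slides of 8, with 2 arrays of each group on every slide, and were scanned on 2 dates of 24 arrays each. Between 62.2% and 81.9% of the probes of an array were well above background. All 6 adipocyte markers examined (ADIPOQ, PLIN1, FABP4, LIPE, CIDEC and PNPLA2) had a kept probe.

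The clock is a loop of transcription that runs in nearly every cell. ARNTL pairs with CLOCK (or NPAS2) and switches on the PER and CRY genes, whose proteins return to the nucleus and silence that pair. NR1D1 and NR1D2 encode REV-ERB alpha and REV-ERB beta, heme-binding nuclear receptors that are themselves switched on by the ARNTL pair and repress ARNTL and other targets. In fat cells this loop is known to time lipid synthesis, lipolysis and the release of adipokines.

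The probes behind these measurements are 60-base oligonucleotides, and the first 30 bases of those that carry the results are shown 5′ to 3′, so that the transcript each value came from can be looked up. The 3 ARNTL probes start at bases 747, 1756 and 2010 of the transcript the annotation gives for them and share no run longer than 7 bases, so they read separate stretches. For PER2 the last 30 bases are shown, with a 16-base TC repeat in capitals, because 0.0912% of all probes on the array hold a dinucleotide repeat of that length and no other clock probe has one of at least 4 units.
NR1D1 (O11226): tgctgatggtgcgctttgcgtcgctgttca
NR1D2 (A_72_P008511): ggataatatcttcatgtttctgaaaagtaa
ARNTL probe 1 (A_72_P481317): acaacgatcaaggctcaagcagtcccagta
ARNTL probe 2 (A_72_P035936): cagagccattgatacaagtcaatcttacta
ARNTL probe 3 (A_72_P044041): tgtgtaggatgaagtgtaacaggccttcag
CRY1 probe 1 (A_72_P255677): ccagtatcatgtgttaagttcttgtttccc
CRY2 probe 1 (A_72_P332498): aatagaggagtgataggatcctagctggga
PER3 (O9093): gataaattccgggaaaaggttccgtcatca
PER2, end of O9329: ccatcaaccagcctTCTCTCTCTCTCTCTC

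No clock probe passed the study's cut-offs for diet, line or their interaction, although the diet moved many other probes of the same arrays. In a limma fit of diet, line and interaction, a probe was called when its raw p was under 0.01, its fold change over 1.1 and its adjusted p (Benjamini-Hochberg over all kept probes) under 0.08. Diet called 13.1% of all kept probes and line called 1.37%, against 0 of 12 clock probes in either comparison. The interaction called 0% of all kept probes. At an unadjusted p under 0.05, limma gave 2 clock probes for diet, 0 for line and 1 for interaction, where 25.5%, 10.4% and 1.04% of all kept probes had such a p. An ordinary analysis of variance on the same values also called 0 of 12. The HF and LF ranges of all 12 probes overlapped. In whole tissue, fewer cells of a type and less RNA per cell cannot be told apart.

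**Figure D1:**
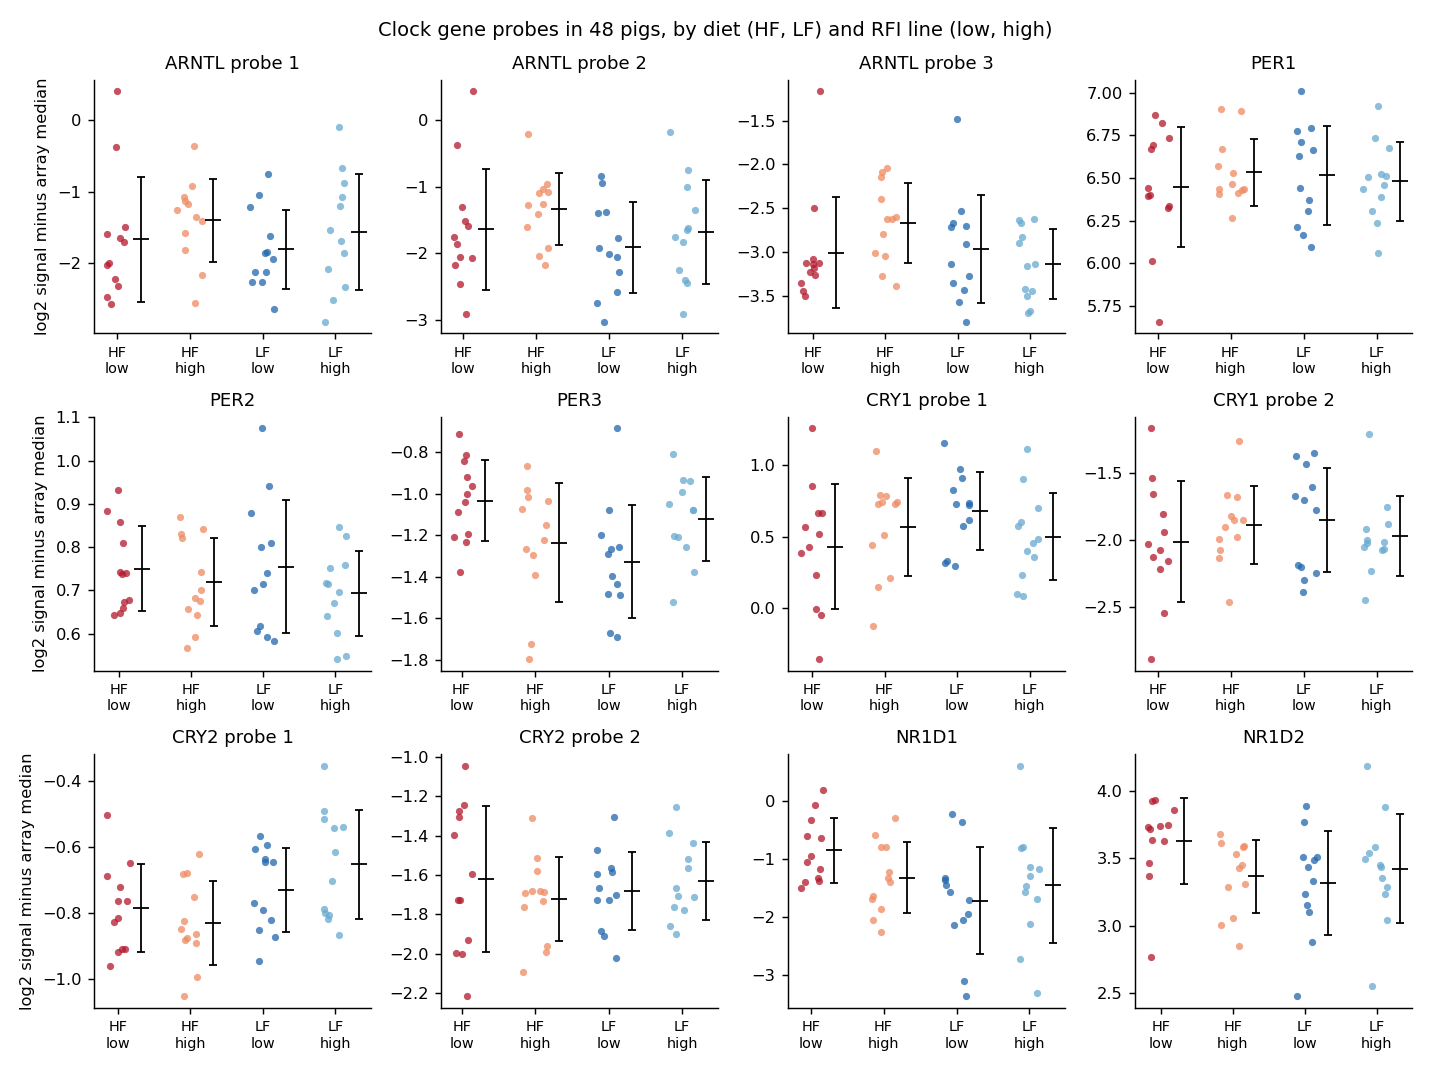
Log2 signal minus array median (y axis, linear in log2, a separate range for each panel) of the 12 kept clock probes in the 4 groups (x axis: diet and RFI line). Each point is 1 of 12 pigs and the bars give the group mean and SD. The groups overlap in every panel, and the widest spread between pigs is that of NR1D1 and of ARNTL probes 1 and 2.

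Of the activators among the members, ARNTL was the one measured. ARNTL probe 1 lay between -2.58 and 0.40 in HF low RFI pigs (median -1.85), between -2.56 and -0.36 in HF high RFI pigs (median -1.31), between -2.64 and -0.76 in LF low RFI pigs (median -1.90) and between -2.82 and -0.10 in LF high RFI pigs (median -1.62). The groups overlapped over most of a range of 3.22 log2 units, a 9.35-fold spread, and each reached down to -2.56 or lower. Its diet difference, HF minus LF, was 0.15 on the log2 scale (SE 0.20, 95% interval -0.25 to 0.55, adjusted p = 0.683 by limma). Probe 2 differed by 0.31 (95% interval -0.11 to 0.72, adjusted p = 0.362 by limma) and probe 3 by 0.21 (95% interval -0.09 to 0.52, adjusted p = 0.396 by limma). All 3 differences were positive, except that probe 1 gave -0.07 with the signal level of each array as a covariate, and none passed the test. With that covariate probe 2 gave 0.07, and with normexp background correction probe 1 gave 0.08, probe 2 gave 0.17 and probe 3 gave 0.07. Between lines, low RFI minus high RFI, probe 1 differed by -0.26 (95% interval -0.66 to 0.15) and probe 2 by -0.27 (95% interval -0.68 to 0.15). Both intervals hold 0. On scan dates 1 and 2 these line differences were -0.48 and -0.03 for probe 1, and -0.54 and 0.01 for probe 2.

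Probes 1 and 2 of ARNTL rose and fell together from pig to pig (Pearson r = 0.92 over 48 pigs after the group means were removed), and probe 3 went with them less closely (r = 0.62 and 0.65). The residual SD of ARNTL probe 1 was 0.72 log2 units, above that of 95.6% of kept probes, and that of probe 2 was 0.74, above 96.0%. Of this spread within groups, 36.0% lay between slides for probe 1, where the median gene had 23.0%. Correlations of ARNTL with PER1, PER2, NR1D1, NR1D2 and the partners that passed are therefore also given below with slide removed. With PER3, CRY1 and CRY2 the slide-removed r of ARNTL was -0.25, 0.04 and -0.15.

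The PER genes encode the period proteins, which carry the repression back to the ARNTL pair. PER1 ran from 5.66 to 6.87 (low RFI) and from 6.26 to 6.90 (high RFI) on HF, and from 6.10 to 7.01 (low RFI) and from 6.06 to 6.92 (high RFI) on LF, with medians between 6.42 and 6.53. Its diet difference was -0.01 (95% interval -0.16 to 0.15, adjusted p = 0.968 by limma), and its sign turned with 75th percentile scaling (0.03). PER2 differed by 0.01 between diets (95% interval -0.06 to 0.09, adjusted p = 0.894 by limma). Its whole range over 48 pigs was 0.53 log2 units, its residual SD of 0.12 was among the smallest on the array, and 63.3% of its spread within groups lay between slides. Little of the PER2 signal thus differed from pig to pig, and most of what did lay between slides.

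PER3 had the smallest interaction p of the clock probes, so its groups are given line by line. In low RFI pigs it ran from -1.38 to -0.71 on HF (median -1.02) and from -1.69 to -0.68 on LF (median -1.34). In high RFI pigs it ran from -1.80 to -0.87 on HF (median -1.19) and from -1.52 to -0.81 on LF (median -1.08). The diet difference of PER3 was 0.30 in low RFI pigs (SE 0.10, raw p = 0.00501, adjusted p = 0.113 by limma) and -0.11 in high RFI pigs (SE 0.10, adjusted p = 0.661 by limma), and neither was called. The interaction itself was 0.41 (SE 0.14, 95% interval 0.12 to 0.69, raw p = 0.00581), and no other clock probe had an unadjusted interaction p under 0.05. Over all kept probes its adjusted p by limma was 1, and so the difference between the lines did not hold against the number of probes tested. The low RFI difference of PER3 did pass the cut-offs under 4 of the alternative settings (75th percentile scaling, array weights, the signal level as a covariate and the replicate number as a block) and was 0.12 on the arrays of scan date 1 and 0.47 on those of scan date 2. It was 0.16 with normexp background correction and 0.19 with the authors' deposited values, without a call.

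The CRY genes encode the cryptochromes, the partners of the PER proteins in repression. CRY2 probe 1 had the smallest adjusted p between diets of the members' probes. It ran from -0.96 to -0.50 in HF low RFI pigs (median -0.79), from -1.052 to -0.62 in HF high RFI pigs (median -0.86), from -0.94 to -0.57 in LF low RFI pigs (median -0.71) and from -0.87 to -0.35 in LF high RFI pigs (median -0.66). The HF values lay lower, with 18 of 24 HF pigs under the LF mean, but the ranges overlapped for most of their length. CRY2 probe 1 differed by -0.12 between diets (SE 0.04, 95% interval -0.21 to -0.03, raw p = 0.0112, adjusted p = 0.0779 by limma), a 1.08-fold difference that missed both the raw p and the fold cut-off. The difference was -0.08 with 75th percentile scaling (adjusted p = 0.363 by limma), with the signal level of each array as a covariate (adjusted p = 0.200 by limma) and on scan date 2 alone (adjusted p = 0.608 by limma), and under that scaling NR1D1 had a smaller adjusted p, of 0.108 by limma. The adjusted p was 0.0459 with quantile normalization, 0.0479 with slide as a block and 0.0476 with scan date as a block, all by limma and with a difference of -0.12, and over the 17 alternatives the difference reached -0.16, on scan date 1 alone, without a call. The other CRY2 probe differed by -0.02 (95% interval -0.17 to 0.13, adjusted p = 0.913 by limma), which became 0.02 with 75th percentile scaling, and the probes of CRY2 went together with r = 0.51. CRY1 probe 1 differed by -0.09 between diets (95% interval -0.29 to 0.10) and CRY1 probe 2 by -0.04 (95% interval -0.25 to 0.17, near 0 and positive with 75th percentile scaling), with r = 0.81 between them. Neither was called (adjusted p = 0.593 and 0.851 by limma).

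With all arrays together, NR1D1 had the largest diet difference of the clock genes, and also the widest spread. It ran from -1.50 to 0.20 in HF low RFI pigs (median -0.99), from -2.25 to -0.30 in HF high RFI pigs (median -1.37), from -3.36 to -0.22 in LF low RFI pigs (median -1.63) and from -3.30 to 0.61 in LF high RFI pigs (median -1.37). The 4 lowest values (-3.36, -3.30, -3.09 and -2.72) were all of LF pigs, 2 of each line, while the highest of all was also of an LF pig. NR1D1 differed by 0.50 between diets (1.41-fold higher on HF, SE 0.22, 95% interval 0.05 to 0.94, raw p = 0.0287, adjusted p = 0.140 by limma), with 19 of 24 HF pigs above the LF mean, and it was not called. It was 0.24 on the arrays of scan date 1 and 0.76 on those of scan date 2, with no call on either, 0.28 with normexp background correction and 0.36 with the authors' deposited values. The NR1D1 difference was 0.87 in low RFI pigs (95% interval 0.24 to 1.49, adjusted p = 0.138 by limma) and 0.13 in high RFI pigs (95% interval -0.50 to 0.76, adjusted p = 0.899 by limma). The test of that unequal response gave an interaction of 0.74 (SE 0.44, raw p = 0.101, adjusted p = 1 by limma). The low RFI difference of NR1D1 was called with array weights and with the replicate number as a block, and was 0.50 on the arrays of scan date 1 and 1.24 on those of scan date 2, and 0.52 with normexp.

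NR1D2 varied over a narrower range, 3.27-fold over the 48 pigs where NR1D1 spanned 15.7-fold. It ran from 2.77 to 3.93 in HF low RFI pigs (median 3.72), from 2.85 to 3.68 in HF high RFI pigs (median 3.44), from 2.48 to 3.89 in LF low RFI pigs (median 3.38) and from 2.55 to 4.19 in LF high RFI pigs (median 3.44). NR1D2 differed by 0.13 between diets (95% interval -0.07 to 0.32, adjusted p = 0.439 by limma). In low RFI pigs the difference was 0.31 (95% interval 0.03 to 0.59, adjusted p = 0.260 by limma) and in high RFI pigs -0.06 (95% interval -0.33 to 0.22, adjusted p = 0.902 by limma). Neither passed the test. Within the lines, diet called 3.04% of all kept probes in low RFI pigs and 1.66% in high RFI pigs, against 0 of 12 clock probes in each, while 3 and 2 clock probes had an unadjusted p under 0.05, as did 15.1% and 13.9% of all kept probes (NR1D1, NR1D2 and PER3 in low RFI pigs, CRY2 probe 1 and ARNTL probe 3 in high RFI pigs). The ordinary analysis of variance called 0 of 12 in each line too.

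**Figure D2:**
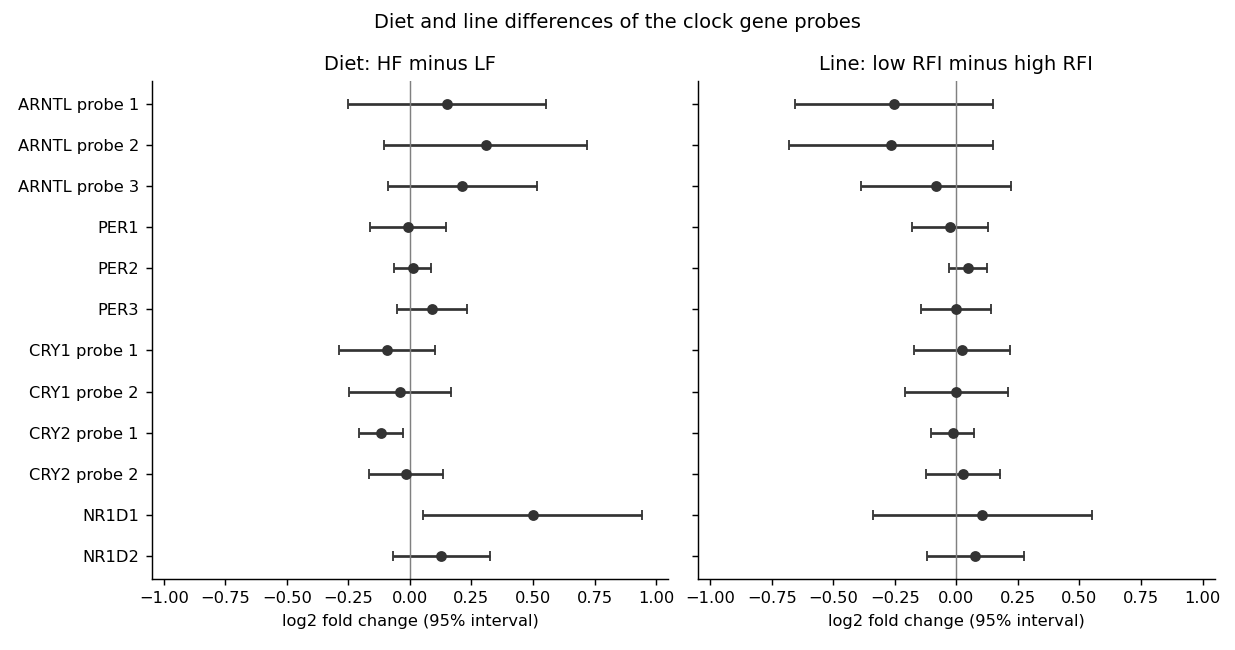
Log2 fold change (x axis) of each kept clock probe (y axis) for diet, HF minus LF (left), and for line, low RFI minus high RFI (right). Points are limma estimates over 48 pigs and bars their 95% intervals; only NR1D1 (0.50) and CRY2 probe 1 (-0.12) have a diet interval that leaves out 0, and every line interval holds 0.

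Within groups the next question was which clock genes moved together from pig to pig. Each gene was taken by its brightest kept probe, its group means were removed, and the 28 pairs of the 8 genes were correlated over 48 pigs, with permutation tests within groups and Benjamini-Hochberg adjustment over the 28 pairs. By Pearson's r, 5 pairs had an adjusted p under 0.05. By Spearman's rho, PER3 also passed with NR1D1 (r = 0.35, rho 0.43, permutation p = 0.017 and 0.00274, adjusted p = 0.0594 and 0.0128) and with NR1D2 (r = 0.30, rho 0.40, permutation p = 0.0427 and 0.00714, adjusted p = 0.109 and 0.0286). Within the groups the r of PER3 with NR1D1 ran from -0.03, in high RFI pigs on HF, to 0.60, and that with NR1D2 from 0.10 to 0.54. With the authors' deposited values they were 0.22 and 0.17 over all pigs. Outside the members, 872 genes had a larger r in size with NR1D1 than PER3 had.

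The closest pair was NR1D1 and NR1D2 (Pearson r = 0.78, Spearman rho = 0.71, permutation p = 1e-05 for each, the smallest that 100000 resamples can give, adjusted p = 0.00028). On HF the correlation was 0.53 in pigs of either line, and on LF it was 0.89 in the low RFI and 0.92 in the high RFI line. It was 0.85 on scan date 1, 0.69 on scan date 2, 0.77 with slide removed and 0.71 without the 2 pigs farthest out in NR1D1. The LF pig with the lowest NR1D1 (-3.36) also had the lowest NR1D2 (2.48), and the LF pig with the highest NR1D1 (0.61) had the highest NR1D2 (4.19). This pair kept its call under the alternatives of scaling, slide, scan date, replicate block and deposited values. Neither gene had another kept probe, so the choice of probe could not change this pair. Of the 11265 genes outside the members, 0 had a correlation with NR1D1 as large in size as that of NR1D2. The probes of NR1D1 and NR1D2 printed above share no run longer than 5 bases.

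CRY1 ran against both REV-ERB genes. Its correlation with NR1D1 was -0.48 (rho -0.43, permutation p = 0.00034, adjusted p = 0.00476) and with NR1D2 -0.44 (rho -0.47, permutation p = 0.00175, adjusted p = 0.0163). Both held their sign in each group, with r from -0.72 to -0.22 for NR1D1 and from -0.73 to -0.05 for NR1D2, and were -0.45 and -0.41 with slide removed. Without the 2 pigs farthest out in CRY1 they were -0.43 and -0.49. On scan dates 1 and 2 they were -0.52 and -0.41 for NR1D1 and -0.45 and -0.42 for NR1D2, with no adjusted p under 0.05 on either date. With the replicate number as a block both lost their call, at r = -0.38 (adjusted permutation p = 0.115) and -0.31 (adjusted permutation p = 0.230). Outside the members, 184 genes had a larger r in size with NR1D1 than CRY1 had.

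PER3 also ran against CRY1 (r = -0.41, rho -0.44, permutation p = 0.0035, adjusted p = 0.0196). This was -0.43 with slide removed, -0.40 and -0.31 on scan dates 1 and 2, and -0.38 without the 2 pigs farthest out in PER3, but in LF high RFI pigs it was 0.02. It was not called on either scan date, with 75th percentile scaling (r = -0.35, adjusted permutation p = 0.0597) or with the authors' deposited values (r = -0.35, adjusted permutation p = 0.0744). With the replicate number as a block r was -0.48, larger in size, and its adjusted permutation p was 0.0666. ARNTL and PER2 had r = -0.41 (rho -0.46, permutation p = 0.00328, adjusted p = 0.0196, -0.46 without the 2 pigs farthest out in ARNTL). With slide removed that correlation was -0.10, and it was -0.07 on scan date 1 and -0.39 on scan date 2, so it did not hold within slides. It was also not called with the authors' deposited values, the mean of all probes or the replicate number as a block, and 3197 genes outside the members had a larger r in size with ARNTL. With slide removed, PER1 with CRY2 (r = 0.53, where it was 0.31) and ARNTL with PER1 (r = -0.46, where it was -0.25) passed instead. PER2 is the gene with 63.3% of its spread between slides.

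ARNTL and NR1D1, the activator and one of its known repressors, had r = 0.08 (rho 0.12, permutation p = 0.602, adjusted p = 0.614). It was 0.09 on scan date 1, -0.05 on scan date 2, -0.05 with slide removed and 0.13 without the 2 pigs farthest out in ARNTL. ARNTL and NR1D2 had r = -0.14 (permutation p = 0.369, adjusted p = 0.470), and -0.38 with slide removed (adjusted permutation p = 0.0506).

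**Figure D3:**
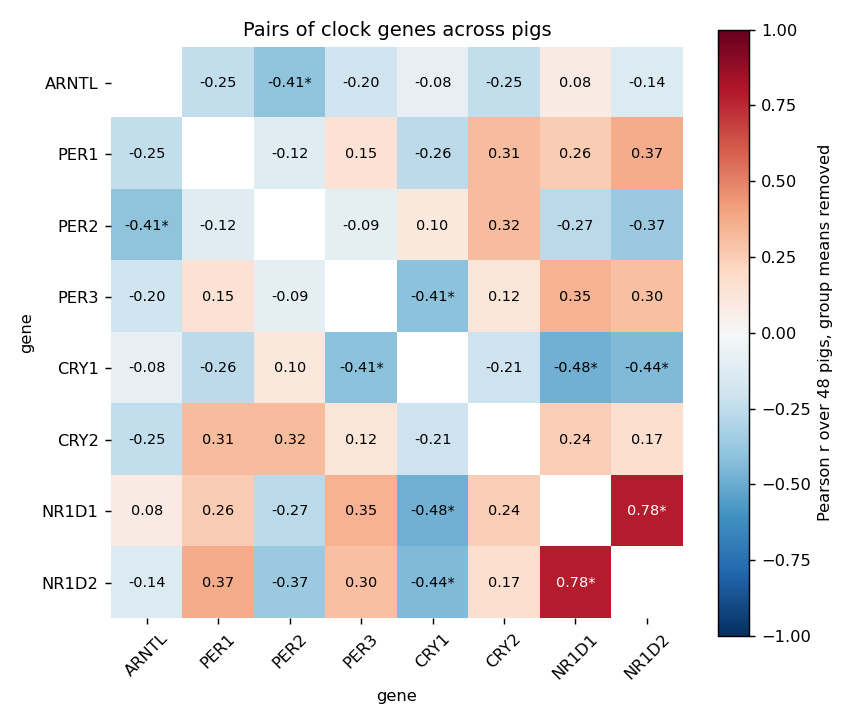
Pearson r (colour and printed value) between each pair of clock genes (both axes) over 48 pigs after group means were removed; a star marks an adjusted permutation p under 0.05. NR1D1 with NR1D2 stands out at 0.78, CRY1 is negative with PER3, NR1D1 and NR1D2, and ARNTL with NR1D1 is 0.08.

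The partners and outputs of the loop were set beside ARNTL and NR1D1 in the same way. This family of 32 relations (16 genes against each) was added after the values had been seen. NR1D1 had 7 relations with an adjusted p under 0.05, the smallest of size 0.40, a size reached by 4.31% of the 11265 genes outside the members. ARNTL had 5, the smallest of size 0.37, which 34.0% of those genes reached, so 5 of 16 partners is near the share of all genes. Highest in size was NFIL3, a repressor that competes with the PAR bZIP activators for their sites, which ran against NR1D1 (r = -0.62, rho -0.59, permutation p = 1e-05, adjusted p = 0.00032). It was negative in all 4 groups, from -0.91 to -0.31, and -0.70 with slide removed, and its 3 probes gave r = -0.65, -0.62 and -0.42. HLF, one of those PAR bZIP activators, went with NR1D1 (r = 0.50, rho 0.53, permutation p = 0.00022, adjusted p = 0.00235, 0.44 with slide removed).

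CIART, a repressor of the ARNTL pair, went with NR1D1 at r = 0.51 (rho 0.59, permutation p = 0.00078, adjusted p = 0.00416, 0.46 with slide removed). KLF10, a clock-controlled zinc finger factor, had r = 0.46 (rho 0.53, permutation p = 0.00063, adjusted p = 0.00403, 0.43 with slide removed), and all 5 of its probes were positive, from 0.23 to 0.46. BHLHE41, another repressor of the loop, had r = 0.40 (rho 0.47, permutation p = 0.00328, adjusted p = 0.0131, 0.37 with slide removed), but its second probe gave 0.03. NAMPT, the rate-limiting enzyme of the NAD salvage pathway, ran against NR1D1 (r = -0.46, rho -0.47, permutation p = 0.00236, adjusted p = 0.0108, -0.53 with slide removed), with -0.50 and -0.19 at its other probes.

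PPARA, the fatty acid receptor of oxidative tissues, had r = 0.58 with NR1D1 at its brightest probe (rho 0.60, permutation p = 2e-05, adjusted p = 0.00032, 0.57 with slide removed). The other PPARA probes gave 0.31 and -0.12, so the value rests on the choice of probe. Without the 2 pigs farthest out in NR1D1, the 7 correlations ran from -0.59 for NFIL3 to 0.62 for PPARA and each kept its sign. Each also kept its sign on both scan dates, with the lowest size 0.34 (BHLHE41 on scan date 2).

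**Figure D4:**
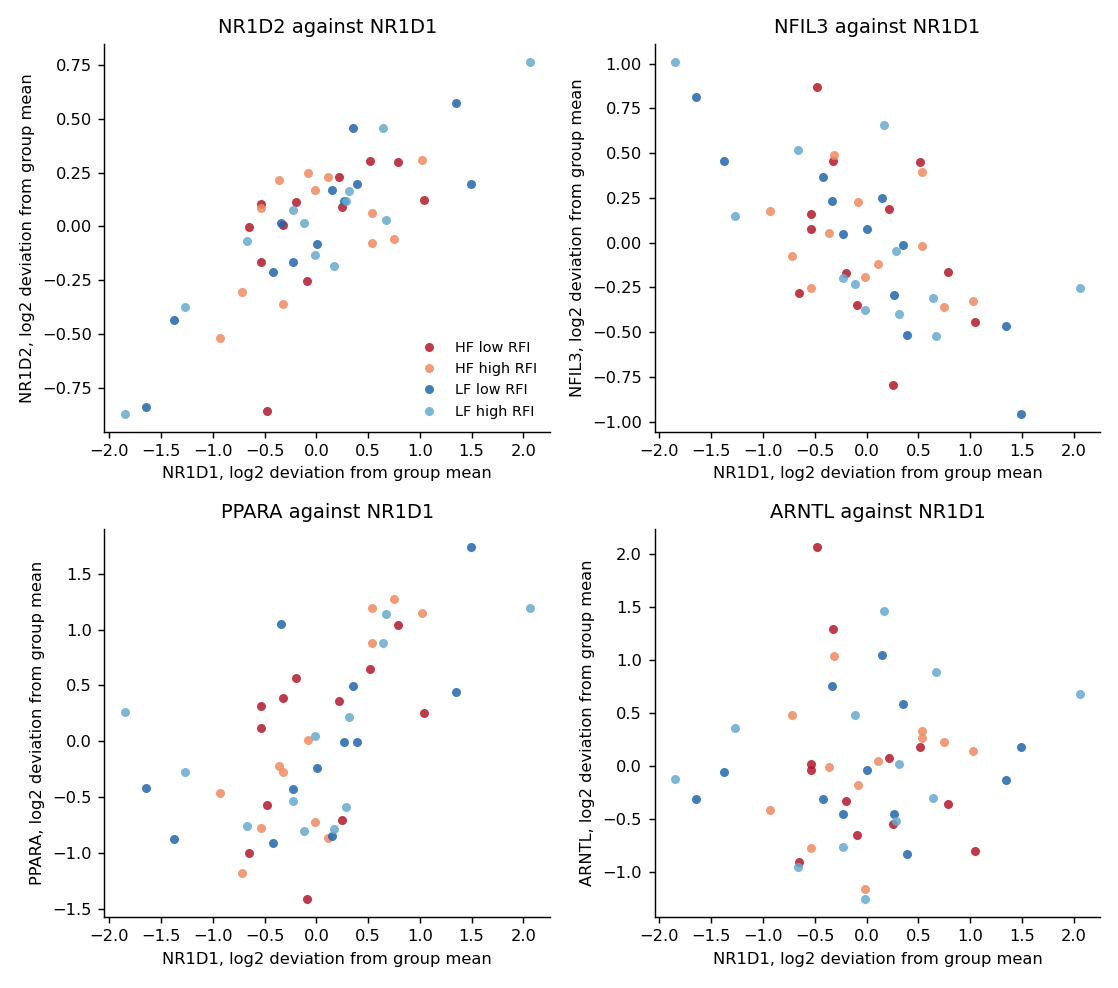
Log2 deviation from the group mean of NR1D2, NFIL3, PPARA (brightest probe) and ARNTL (y axes) against that of NR1D1 (x axes); each point is 1 of 48 pigs, coloured by group. NR1D2 rises along NR1D1 (r = 0.78), NFIL3 falls (r = -0.62), PPARA rises (r = 0.58), and ARNTL shows no slope (r = 0.08).

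For ARNTL the relations were with TIPIN, the partner protein of TIMELESS (r = 0.51, rho 0.52, permutation p = 0.00056, adjusted p = 0.00403), RORA, an activator of ARNTL (r = -0.41, rho -0.36, permutation p = 0.00629, adjusted p = 0.0224), NPAS2, the stand-in for CLOCK (r = 0.40, rho 0.34, permutation p = 0.00786, adjusted p = 0.0252), NFIL3 (r = 0.40, rho 0.34, permutation p = 0.00865, adjusted p = 0.0252, with 0.36 and -0.20 at its other probes) and the deubiquitinase USP2 (r = -0.37, rho -0.35, permutation p = 0.0173, adjusted p = 0.0460). With slide removed they were 0.40 for TIPIN, -0.29 for RORA, 0.19 for NPAS2, 0.34 for NFIL3 and -0.24 for USP2, so all 5 were smaller. On scan dates 1 and 2 they were 0.43 and 0.54 for TIPIN, -0.40 and -0.31 for RORA, 0.63 and 0.20 for NPAS2, 0.40 and 0.47 for NFIL3, and -0.50 and -0.38 for USP2. Within the groups, TIPIN and NFIL3 were positive in all 4, whereas NPAS2 gave -0.30 in high RFI pigs on HF, RORA 0.04 in low RFI pigs on LF and USP2 0.10 in high RFI pigs on LF. Without the 2 pigs farthest out in ARNTL, NFIL3 fell to 0.24 and the others lay between 0.35 and 0.46 in size. By Spearman's rho only TIPIN kept an adjusted p under 0.05 (0.00139), whereas all 7 relations of NR1D1 did.

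Over all genes outside the members, the 5 whose pattern over the 48 pigs was most like ARNTL were the splicing factor SRSF2 (r = 0.79), LOC100512560 (0.76), the methyl-CpG binding protein MBD2 (0.76), the phosphatase-family protein MTMR9 (0.74) and TRAPPC13 (0.74), which were 0.60 to 0.69 with slide removed. The 9 SRSF2 probes ran from 0.15 to 0.79. Among those most like NR1D1 were KIAA0831 (0.67), the octamer factor POU2F1 (0.63), the pseudouridine synthase TRUB1 (0.63) and ZNF346 (0.62). These are descriptions over pigs that share slides, with no test. The median size of r over all other genes was 0.27 with ARNTL and 0.13 with NR1D1, so a given r stands out less from the array for ARNTL. At the other end, and named after their values were seen, the genes most opposed to NR1D1 were FAM126B (-0.75), the chaperones HSPH1 (-0.68) and HSPA8 (-0.65), the chaperone partner CHORDC1 (-0.65) and the poly(A) polymerase PAPOLA (-0.64). All 4 HSPH1 probes (-0.72 to -0.53) and both HSPA8 probes (-0.65 and -0.63) were negative, but PAPOLA probes ran from -0.64 to 0.20.

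The rest of the pathway was read from lists, each gene by its brightest kept probe in a fit over 11273 genes, of which diet called 12.6% and line 1.17%. The clock genes themselves gave 0 of 8 called by diet and 0 of 8 by line, and their median diet difference was 0.05 beside -0.04 over all genes. Of 8 partners of the core loop (among them NPAS2, BHLHE40, BHLHE41, CIART and TIPIN), 0 were called by diet or line, and their median diet difference was -0.08. NPAS2 differed by -0.30 between diets (SE 0.19), BHLHE40 by -0.27 (SE 0.14) and CIART by 0.22 (SE 0.11), none of which passed the test. No partner had an unadjusted p under 0.05 by limma for diet or line (0 of 8 for each), and the ordinary analysis of variance called 0 as well.

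Among 8 clock output genes, diet called 1 higher and 1 lower. NAMPT fell on HF, from a mean of 1.105 ± 0.41 in LF pigs to 0.64 ± 0.32 in HF pigs (SD, n = 24 each), a difference of -0.47 (SE 0.11, adjusted p = 0.00288 by limma). The NAMPT probes differed by -0.47, -0.45 and -0.07, and the last was not called. The brightest PPARA probe rose on HF, from -0.97 ± 0.78 to -0.01 ± 0.81 (SD, n = 24 each), a difference of 0.96 (SE 0.22, adjusted p = 0.00342 by limma). Over 18 alternative settings the PPARA difference ran from 0.28 to 1.17, and it lost its call under 2. A second PPARA probe was called in the opposite direction (-0.32, adjusted p = 0.0626 by limma) and the remaining one differed by 0.21 (adjusted p = 0.504 by limma), so the probes of PPARA did not share a direction. Both genes were among those correlated with NR1D1 within groups.

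Among 23 enzymes that modify the loop, diet called 0 higher and 2 lower. GSK3B, a kinase that phosphorylates PER2, CRY2 and NR1D1, had a log2 difference of -0.23 (SE 0.05, adjusted p = 0.0019 by limma), and all 3 of its probes were called lower. PRKAA1, a catalytic subunit of the AMP-activated kinase that marks CRY1 for breakdown, had one of -0.16 (SE 0.06, adjusted p = 0.0532 by limma). The median diet difference of the enzymes was -0.03, with 16 of 23 below 0, where 7013 of 11273 genes were below 0. PRKAA1 lost its call under 8 of 18 alternative settings.

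Glucocorticoids and handling also move clock genes in tissue, so their target genes were listed too. Of 8 glucocorticoid-responsive genes, diet called 1 higher (PDK4, 0.63, SE 0.23, adjusted p = 0.0692 by limma, 6 of whose 11 probes were called) and 1 lower (DUSP1, -0.36, SE 0.13, adjusted p = 0.0718 by limma), with a median of -0.04. DUSP1 lost its call under 13 of 18 alternative settings, over which its difference ran from -0.48 to -0.23. PDK4 lost its call under 9, with a difference from 0.53 to 0.79. The ordinary analysis of variance called neither. Of 8 immediate early genes, 0 were called by either test and 0 had an unadjusted p under 0.05 for diet or line, with a median of -0.11. Line called 0 genes in any of these 5 lists by limma or by the ordinary test, while 5 of 23 loop enzymes and 2 of 8 glucocorticoid-responsive genes had an unadjusted p under 0.05 for it, beside 10.3% of all genes. For diet such a p was held by 9 of 23 loop enzymes, 3 of 8 outputs and 2 of 8 glucocorticoid-responsive genes, beside 25.9% of all genes.

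The same was done for markers of the cells that fat tissue holds. Diet and line called 0 of 6 adipocyte, 0 of 6 macrophage, 0 of 6 skeletal muscle, 0 of 3 blood and 0 of 4 endothelium markers, by limma as by the ordinary test. With no adjustment, limma gave a p under 0.05 to 2 adipocyte markers for diet, 2 adipocyte markers and 1 macrophage marker for line, and to 0 of the muscle, blood and endothelium markers for either. Of 5 stromal markers, diet called PDGFRA higher (0.31, SE 0.11, adjusted p = 0.0673 by limma, not called by the ordinary test), and all 5 estimates were above 0 (median 0.18, 2 with an unadjusted p under 0.05). All 6 skeletal muscle estimates were below 0 (median -0.21), where the median of all genes was -0.04. The part of these marker values in the diet differences of clock genes was not tested. The mean standardised level of each marker list and of the glucocorticoid and immediate early lists was set against ARNTL, NR1D1 and NR1D2 over the 48 pigs, 24 relations added after the values had been seen. The smallest adjusted permutation p was 0.100, reached by ARNTL with the immediate early list (r = -0.38, rho -0.37, permutation p = 0.0125), by ARNTL with endothelium markers (r = 0.36, rho 0.28) and by NR1D2 with the glucocorticoid-responsive list (r = 0.39, rho 0.25). Without the 2 pigs farthest out in the clock gene, these r were -0.47, 0.43 and 0.22. Within the groups the r of NR1D2 with the glucocorticoid-responsive list ran from 0.13 to 0.80, highest in low RFI pigs on HF. For NR1D1 the largest in size was 0.29, with stromal markers (rho 0.32, adjusted permutation p = 0.341). The part of cell make-up in the clock values was not tested beyond these correlations.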

How the data were processed

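RNA of 48 SCAT samples, 1 per pig, was hybridised to 1-colour Agilent arrays. The authors deposited scanner files in which each spot has an intensity that Feature Extraction had corrected for background and detrended, and a table of log2 values centred on the array median. The submitters' processing notes name R 2.10.0. From the processed intensity, log2 values were taken, spots flagged as outliers were left out, and each array's median over kept probes was subtracted. Own log2 values built as the authors describe matched those the authors deposited within 1e-08 for 38987 probes. Diet, line and interaction were fitted with limma 3.58.1 (R 4.3.3), on all kept probes and on 11273 genes by their brightest probe, and correlations were computed in Python 3.11.15 with scipy 1.17.1. Both scripts were tested on simulated data. Named were all clock probes, the genes of the lists that were called, and genes among the 5 most like ARNTL and NR1D1; some items are not reported here. Members and lists were chosen with earlier results of these data known. Symbols came from the array's annotation, updated through RefSeq names where these matched, and 33069 probes stayed unnamed. Promoter motifs were not analysed here. The number of arrays limits the precision. The alternatives changed scaling, background, filter, blocks, array weights, outlier flags, probe choice and test.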

Additional observations from a re-analysis of the deposited data

How the results depend on the processing

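Counts of clock probes called by diet, by line and by interaction were 0 under all 17 alternative settings, and so was the count for diet in high RFI pigs. For diet in low RFI pigs, where the count was 0, it was 1 with 75th percentile scaling, 1 with the signal level as a covariate, 2 with array weights and 2 with the replicate block. Pathway genes called by diet (6) were 3 on scan date 1 and 1 on scan date 2, and those called by line (0) were 1 with the authors' deposited values, 1 with scan date as a block, 1 on scan date 1, 1 with background outlier flags left out and 2 with array weights. Gene pairs (5) were 2 with the replicate block, 1 on scan date 1, 2 on scan date 2, 8 with quantile normalization and 8 with the mean of all probes of a gene. With the replicate block, NR1D1 with NR1D2 kept its call and PER1 with CRY2 gained one. CRY1 with NR1D1, CRY1 with NR1D2 and ARNTL with PER2 lost theirs at a smaller r of -0.38, -0.31 and -0.12. PER3 with CRY1 lost its call at a larger r of -0.48. On scan date 2 the pairs were again NR1D1 with NR1D2 and PER1 with CRY2. Over all kept probes, the diet calls (5790) were 2407 on scan date 1, 1230 on scan date 2 and 7124 with the replicate block. Line calls (606) were 957 with slide as a block, 1140 with the replicate block, 1820 with array weights, 262 with array position as a block, 399 without a filter on dim probes and 1 on scan date 2. The cause was not tested. The replicate numbers were not taken as pairs, since the labels tie them to nothing shared and correlations of same-numbered arrays ran from -0.193 to 0.449 (mean 0.161, against -0.0144 for other numbers). As a hint from the data, 17 of 48 arrays correlated best with their own number, and the arrays of each of the 12 numbers lie on 1 slide.

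Of 406 log2 differences of clock probes under the alternatives, 34 changed sign, all of values that were not called. With 75th percentile scaling, the diet values became 0.001257 for CRY1 A_72_P453794, 0.0232 for CRY2 O8368 and 0.03395 for PER1. PER1 for diet was 0.02322 with quantile normalization, 0.001124 with normexp and 0.002086 with the filter on all arrays. For line, CRY1 A_72_P453794 was 0.004473 with normexp, 0.01428 with the authors' deposited values, 0.00977 with array position as a block and 3.383e-05 with outlier spots kept. PER3 for line was 0.001651 with the authors' values and 0.002651 with array position, and CRY2 A_72_P332498 for line was 0.00705 with the authors' values and 0.003191 with array weights, where PER1 was 0.0165. On scan date 1, the diet values were 0.05331 for CRY1 A_72_P255677, 0.07314 for CRY1 A_72_P453794 and -0.02687 for PER3, and the line values -0.1107 for CRY1 A_72_P255677, 0.01466 for CRY2 A_72_P332498, -0.006265 for CRY2 O8368 and 0.05921 for PER3. On scan date 2, the diet values were 0.02161 for CRY2 O8368 and 0.05962 for PER1, and the line values 0.008822 for ARNTL A_72_P035936, 0.05971 for ARNTL A_72_P044041, 0.171 for CRY1 A_72_P453794, -0.009476 for NR1D1 and -0.08664 for NR1D2. With the signal level as a covariate, the diet values were -0.07077 for ARNTL A_72_P481317, 0.06148 for CRY2 O8368 and 0.006458 for PER1, and the line values 0.02987 for CRY1 A_72_P453794 and -0.006707 for CRY2 O8368. The 6 called pathway genes lost their call in 34 of 108 values.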
